A study of Mus musculus with 8 samples.

Results

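The 10 genes described here carry antigen through the major histocompatibility complex (MHC) class I pathway: H2-K1, H2-D1, B2m, Tap1, Tap2, Tapbp, Psmb8, Psmb9, Psmb10 and Nlrc5. They were chosen by name, and every probe whose gene name in the array files was one of the 10 was kept, which gave 13 of the 55681 gene probes on the array. All 13 probes were well above the local background on all 8 arrays and all were tested. The rule that picks the probes uses names and no measured value.

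RNA came from C57BL/6 bone marrow chimeric mice, 7 days after a 30 min occlusion of the middle cerebral artery, a model of stroke. From the ischaemic brain tissue of each of 4 animals, cells carrying green fluorescent protein (GFP), labelled resident microglia, and cells carrying red fluorescent protein (RFP), labelled invading macrophages, were sorted and hybridised to 1 Agilent array each. Replicates 1, 2, 3 and 4 of both groups were taken as animals A, B, C and D. The numbers in the sample titles follow one another for animals A and B but not for C and D. Every step within an animal below therefore rests on an assumed pairing. Both groups share the strain, the chimerism, the ischaemia and the reperfusion time, and no sham-operated or unoperated brain was analysed here. The labels name neither the promoters that drive the 2 fluorescent proteins nor the age and sex of the animals. In RNA of sorted populations, fewer cells of a type and less RNA per cell cannot be told apart.

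MHC class I molecules present peptides from inside the cell to CD8 T cells. The proteasome cuts cytosolic proteins, the TAP transporter carries the peptides into the endoplasmic reticulum, and tapasin holds the transporter next to a heavy chain that is paired with beta-2 microglobulin until a peptide is bound. Interferons raise most of these genes: they replace the catalytic subunits of the constitutive proteasome with those of the immunoproteasome, and they induce NLRC5, the transactivator of class I genes. In a healthy brain, microglia carry little class I at the surface, and the pathway rises in them after injury and infection.

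The probes are 60 bases long, and their sequences show what each value can tell apart. One of the pair of H2-K1 probes shares a run of 29 identical bases with the probe of H2-T23, a nonclassical class I heavy chain. Both are printed from 5′ to 3′ with the shared run in capitals, at the positions the array files give on mouse build mm9, chr17:34133984-34134043 for H2-K1 and chr17:36167338-36167574 for H2-T23.
H2-K1 probe A_55_P2049647: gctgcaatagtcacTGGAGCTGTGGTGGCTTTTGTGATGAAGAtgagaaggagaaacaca
H2-T23 probe A_51_P237754: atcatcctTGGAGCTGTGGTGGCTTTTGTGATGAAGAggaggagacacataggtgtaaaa
With that run in common, the value of this H2-K1 probe is uncertain as a measure of H2-K1 alone, and binding of H2-T23 to it was not tested. Over the 8 arrays the levels of these 2 probes had a Pearson correlation of 0.99, while the same H2-K1 probe and that of H2-D1 had one of 0.96. The other H2-K1 probe, A_51_P198434 at chr17:34133055-34133114, shared no such run with another heavy chain probe, and it correlated at 0.90 with the first over the 8 arrays.

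The 4 probes that carry the proteasome, transporter and regulator results are printed because each lies in a single gene and shares no long run with another probe on the array. They lie on mm9 at chr17:34337771-34337830 for Psmb8, chr17:34319174-34319233 for Psmb9, chr17:34330854-34330913 for Tap1 and chr8:97030478-97030624 for Nlrc5. The Nlrc5 interval spans 147 bases for a probe of 60, so the probe joins separate stretches of the genome.
Psmb8 probe A_51_P345367: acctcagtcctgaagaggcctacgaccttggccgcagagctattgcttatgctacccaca
Psmb9 probe A_51_P369803: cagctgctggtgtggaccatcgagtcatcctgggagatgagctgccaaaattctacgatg
Tap1 probe A_51_P100327: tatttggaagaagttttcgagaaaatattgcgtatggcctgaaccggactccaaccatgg
Nlrc5 probe A_66_P113043: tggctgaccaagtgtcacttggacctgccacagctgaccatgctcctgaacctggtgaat

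Levels are given as log2 of the processed signal minus the 75th percentile of the same array, so 0 is the level of that percentile and 1 unit is a 2-fold step. Differences are macrophages minus microglia in the same unit, with the standard error (SE) of limma's moderated fit over all 29359 probes with a signal well above background on 4 or more of the 8 arrays. A probe was called when its Benjamini-Hochberg adjusted p was under 0.05. A level cannot be set against that of another probe, because probes differ in brightness.

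The arrays were of like quality by signal over background, with 45.7% to 57.1% of probes well above it and no saturated spot. 1 library stood apart. Macrophage replicate 2, from animal B, correlated at 0.84 to 0.87 with the other macrophage arrays over all probes, while those correlated at 0.93 to 0.95 with each other and the microglia arrays at 0.93 to 0.96. On that array the summed level of the 19 endothelial marker probes, on the linear scale, was 1004, against 27.3 to 121 on the other macrophage arrays and 8.47 to 25.9 on the microglia arrays, and none of the 12 endothelial genes was below background on all arrays. Its summed level of 15 microglial probes was 196, against 491 to 559 on the other macrophage arrays. Of the markers of the labelled cell types, 10 of 15 microglial probes were called lower in macrophages and 8 of 15 tested monocyte probes were called higher. These 2 lists followed the labels. Endothelial probes were also called higher in macrophages, 6 of 14 tested, with a median difference of 5.21. Of the 19, 14 to 19 were well above background on each macrophage array, against 6 or 7 on each microglia array. The endothelial signal was thus not confined to macrophage replicate 2. Other lists stood apart on that array too. Its summed level was 23.6 for T and natural killer cell probes against 3.60 to 6.08 on the other macrophage arrays, 15.4 for dendritic cell probes against 4.98 to 6.11, 217 for neutrophil probes against 117 to 139, and 29.8 for border macrophage probes against 106.9 to 172. Each member and each named gene below is given with and without that library where it changes a call.

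No MHC class I presentation probe was called: 0 of 13, against 6.45% of all tested probes, of which 2.34% were called higher and 4.11% lower in macrophages. With a background this low, a count of 0 among 13 probes sets these genes apart from no others. The lowest adjusted p of limma's fit was 0.167 and the highest 0.991. At an unadjusted p under 0.05 there were 2 of 13, one probe of Psmb9 and one of Nlrc5, against 23.5% of all probes. The 13 differences ran from -0.01 for Tapbp to 1.04 for Nlrc5 with a median of 0.41, where the median of all tested probes was -0.00. Differences above 0 were 12 of 13, against 49.9% of all probes, and 5 of 13 probes were higher in macrophages in all 4 animals, against 16.9%. In none of the 13 did the groups separate, while the groups did not overlap for 16.7% of all probes. The members' SEs were 0.21 to 0.45, beside a median of 0.37 over all probes, on a scale where a 2-fold difference is 1.

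**Figure D1:**
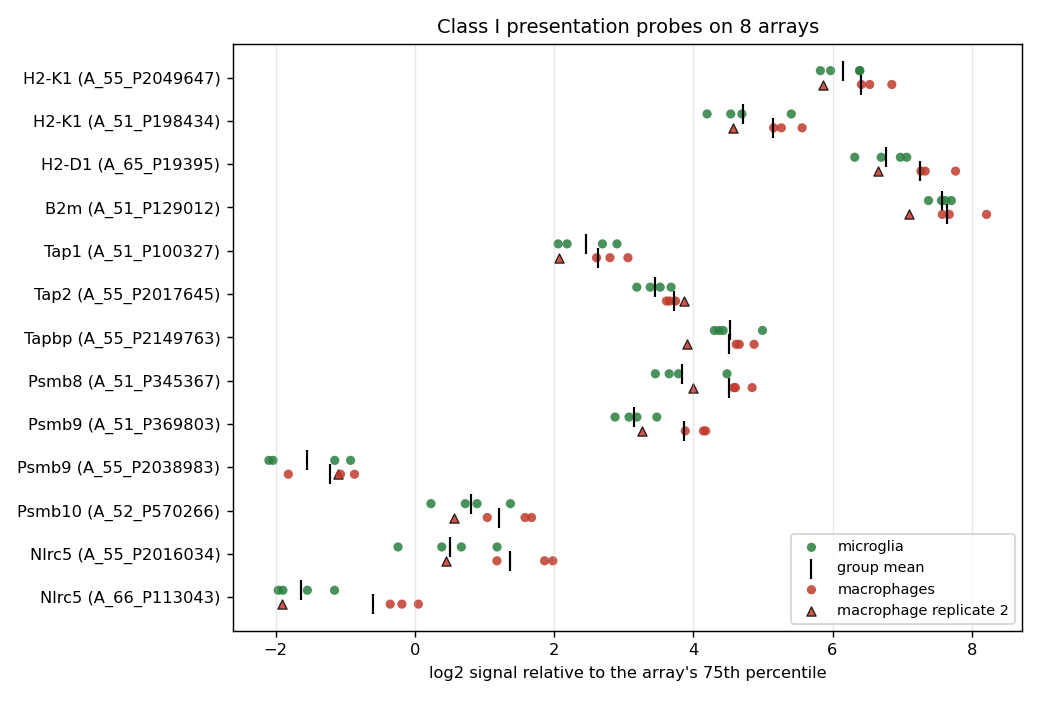
Level of each of the 13 probes on each array (log2 processed signal minus the array's 75th percentile), with the 4 microglia arrays in green, the 4 macrophage arrays in red and the group means as vertical bars. The groups overlap in every row, and macrophage replicate 2, drawn as a triangle, is the lowest macrophage array in 11 of the 13 rows.

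The classical heavy chains H2-K1 and H2-D1, which hold the peptide, were well above background on all 8 arrays and did not pass the test. The first H2-K1 probe, shared in sequence with H2-T23, read 6.39, 5.83, 6.39 and 5.97 in microglia 1 to 4 and 6.85, 5.86, 6.53 and 6.42 in macrophages 1 to 4. The second read 5.41, 4.20, 4.70 and 4.54 in microglia and 5.56, 4.58, 5.27 and 5.15 in macrophages. For both probes the macrophage array was the higher of the pair in each animal, and the range over animals within either group exceeded each of those steps. The differences were 0.27 (SE 0.28, adjusted p by limma = 0.604) for the first probe and 0.43 (SE 0.33, adjusted p by limma = 0.476) for the second. The first probe's 95% interval, 0.77-fold to 1.89-fold, lay within a 2-fold change either way, and that of the second, 0.796-fold to 2.28-fold, did not.

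H2-D1, measured by 1 probe at chr17:35403886-35403945, read 6.97, 6.32, 7.07 and 6.70 in microglia and 7.77, 6.66, 7.27 and 7.33 in macrophages. Macrophage replicate 1 was the highest of the 8 arrays, macrophage replicate 2 lay below 3 of the microglia arrays, and the groups overlapped. The difference was 0.49 (SE 0.30), or 1.41-fold, with a 95% interval of 0.873-fold to 2.27-fold and an adjusted p by limma of 0.364. Its 4 macrophage values had an SD of 0.46 and its 4 microglia values one of 0.34.

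B2m encodes beta-2 microglobulin, the light chain that pairs with the classical class I heavy chains in the endoplasmic reticulum. Its probe (chr2:121978401-121978460) read 7.62, 7.38, 7.56 and 7.71 in microglia and 8.21, 7.10, 7.68 and 7.58 in macrophages. The microglia values lay within those of the macrophages, whose replicate 1 was the highest of the 8 arrays and replicate 2 the lowest. The difference of 0.07 (SE 0.28, adjusted p by limma = 0.900) was 1.05-fold, and its 95% interval of 0.681-fold to 1.62-fold lay within 2-fold either way. Its sign turned with the scaling: it was -0.09 when the percentile was taken over probes detected on all arrays, and -0.07 after quantile normalization.

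**Figure D2:**
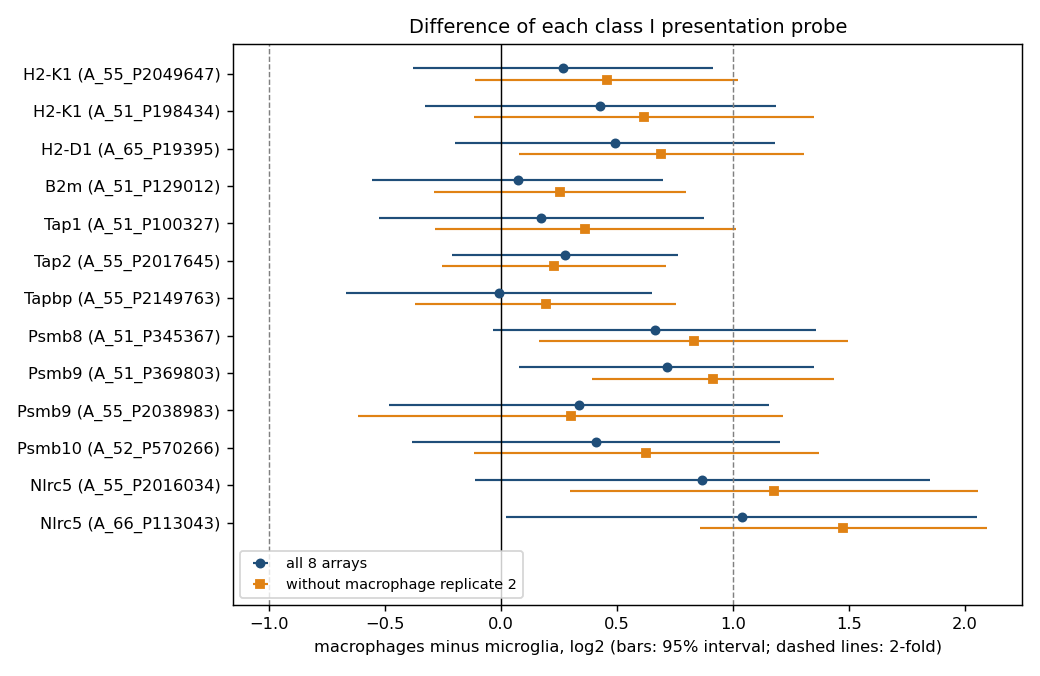
Difference of each probe (macrophages minus microglia, log2) with its 95% interval from limma's fit over all tested probes, with all 8 arrays and without macrophage replicate 2. All 8-array intervals but those of Psmb9 A_51_P369803 and Nlrc5 A_66_P113043 include 0, and the intervals of B2m, Tap1, Tap2, Tapbp and the first H2-K1 probe lie between the 2-fold lines.

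The transporter and loading genes did not pass the test, with differences of -0.01 to 0.28. Tap1 and Tap2 together form the peptide transporter, and Tapbp encodes tapasin. Tap1 read 2.06, 2.19, 2.90 and 2.69 in microglia and 2.80, 2.07, 3.06 and 2.61 in macrophages, so both groups covered nearly the same range. Its difference was 0.18 (SE 0.31, adjusted p by limma = 0.769), and it was -0.00 after quantile normalization and -0.02 after normexp background correction with quantile normalization. Tap2 (chr17:34353116-34353175) read 3.19, 3.38, 3.68 and 3.52 in microglia and 3.61, 3.86, 3.66 and 3.75 in macrophages. Tap2 varied less between macrophages than any other member, with an SD of 0.11 (n = 4), and it was one of the 2 probes for which macrophage replicate 2 was not the lowest macrophage array. Its difference was 0.28 (SE 0.21, adjusted p by limma = 0.474).

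Tapbp (chr17:34065963-34066022) read 4.99, 4.30, 4.37 and 4.43 in microglia and 4.87, 3.92, 4.66 and 4.62 in macrophages. Microglia replicate 1 was the highest array and macrophage replicate 2 the lowest, and the group means were 4.52 for both. The difference was -0.01 (SE 0.29, adjusted p by limma = 0.991), and it was 0.20 when each array was centred on its median. The 95% intervals were 0.694-fold to 1.84-fold for Tap1, 0.865-fold to 1.70-fold for Tap2 and 0.63-fold to 1.57-fold for Tapbp. All 3 lay within a 2-fold change either way, as did 24.8% of all tested probes.

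The catalytic subunits of the immunoproteasome had differences of 0.34 to 0.71, none of which passed the test with all 8 arrays. Psmb8 (LMP7) replaces Psmb5 in the proteolytic core. It read 4.48, 3.46, 3.65 and 3.79 in microglia and 4.61, 4.0, 4.58 and 4.85 in macrophages. The macrophage array was higher in all 4 animals, and the groups overlapped through microglia replicate 1, which lay above macrophage replicate 2. The difference was 0.66 (SE 0.31), or 1.58-fold, with a 95% interval of 0.978-fold to 2.56-fold and an adjusted p by limma of 0.232.

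Psmb9 (LMP2) replaces Psmb6, and its RefSeq probe, the one printed above, read 2.88, 3.19, 3.48 and 3.08 in microglia and 3.88, 3.27, 4.18 and 4.15 in macrophages. In 3 animals the macrophage array was higher by 0.70 to 1.07, and in animal B by 0.08, where macrophage replicate 2 lay within the microglia range. The difference was 0.71 (SE 0.28), or 1.64-fold, with a 95% interval of 1.06-fold to 2.55-fold and an adjusted p by limma of 0.167. Without macrophage replicate 2 it was 0.91, or 1.89-fold, with an adjusted p by limma of 0.0369. A second, dimmer probe that the files name Psmb9 from an Ensembl transcript, A_55_P2038983 at chr17:34322762-34322821, did not follow it. It read -2.04, -1.15, -0.92 and -2.10 in microglia and -0.87, -1.11, -1.82 and -1.07 in macrophages, with a difference of 0.34 (SE 0.36, adjusted p by limma = 0.609), and the 2 probes correlated at 0.37 over the 8 arrays.

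Psmb10 (MECL-1), which replaces Psmb7, lies outside the MHC at chr8:108459677-108459736 for its probe. It read 1.37, 0.23, 0.89 and 0.72 in microglia and 1.04, 0.56, 1.58 and 1.68 in macrophages. In animal A the microglia array was the higher by 0.33, and in the other animals the macrophage array was the higher by 0.33 to 0.95. The difference was 0.41 (SE 0.35, adjusted p by limma = 0.517), with a 95% interval of 0.766-fold to 2.30-fold.

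Each immunoproteasome subunit was also set against the constitutive subunit whose place it takes, as a log2 ratio within an array. The ratio took the brightest probe of each gene, and a constant scaling of the array cancels in it. The Psmb8 to Psmb5 ratio was 3.18, 2.77, 2.33 and 2.34 in microglia and 3.16, 2.98, 2.84 and 2.71 in macrophages. The Psmb9 to Psmb6 ratio was -0.62, 0.38, 0.25 and 0.25 in microglia and 0.06, 0.50, 0.46 and 0.69 in macrophages. The Psmb10 to Psmb7 ratio was -2.84, -3.67, -3.40 and -2.92 in microglia and -3.01, -3.31, -2.91 and -3.04 in macrophages. The groups overlapped in all 3 ratios, and the macrophage array was the higher in 3, 4 and 2 of the 4 animals. By a two-sided exact permutation test over the 70 arrangements of the arrays, adjusted over the 3 ratios, the differences were 0.27 (p = 0.286, adjusted p = 0.429), 0.36 (p = 0.229, adjusted p = 0.429) and 0.14 (p = 0.571, adjusted p = 0.571). The smallest p this design allows is 0.0286, and 0.125 when the arrays are paired by animal, so the paired test cannot pass 0.05. After the adjustment over 3 ratios, 1 ratio alone at the smallest unpaired p could not pass 0.05 either. The constitutive partners differed by 0.39 (Psmb5), 0.35 (Psmb6) and 0.27 (Psmb7), with adjusted p by limma of 0.482, 0.530 and 0.603. The value of a ratio depends on the brightness of both probes, so only its difference between groups can be read. With the mean over the passing probes of each gene, the differences were 0.21, 0.17 and 0.14 in the same order. In the deposited table they were 0.14, 0.35 and 0.31.

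**Figure D3:**
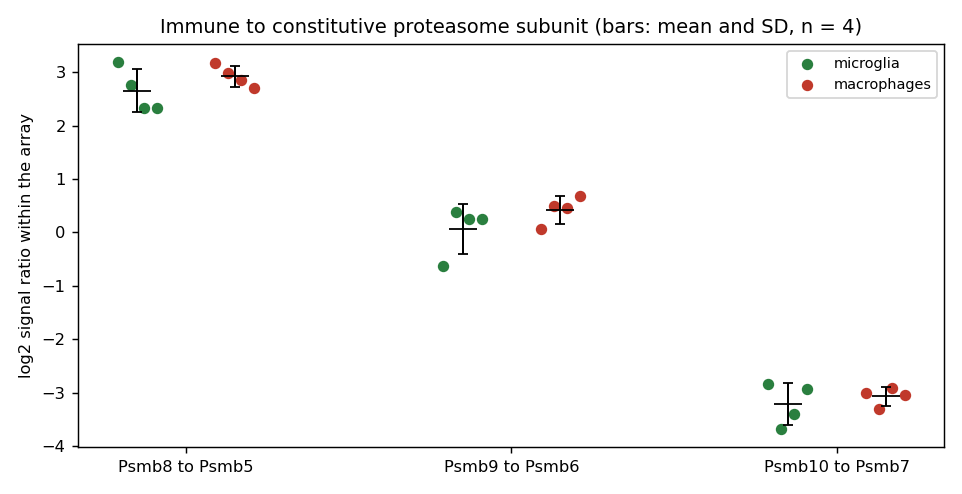
Log2 ratio of each immunoproteasome subunit to its constitutive counterpart on each array, from the brightest probe of each gene. Animals A to D run from left to right in each group, with bars for the mean and SD (n = 4). The groups overlap in all 3 ratios, and the Psmb9 to Psmb6 ratio is the one that is higher in macrophages in all 4 animals, with microglia replicate 1 at -0.62 below the other microglia arrays.

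Nlrc5, the transactivator that binds class I promoters through other proteins, showed the largest difference of the 10 genes, with 2 probes that disagreed in single animals. The probe printed above, A_66_P113043, read -1.96, -1.90, -1.15 and -1.54 in microglia and -0.19, -1.91, -0.35 and 0.05 in macrophages. All macrophage arrays but replicate 2 lay above all microglia arrays, and replicate 2 lay at the level of microglia replicates 1 and 2. The difference was 1.04 (SE 0.45), or 2.05-fold, with a 95% interval of 1.02-fold to 4.15-fold and an adjusted p by limma of 0.203. Without macrophage replicate 2 it was 1.48, or 2.78-fold, with an adjusted p by limma of 0.0128.

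The other Nlrc5 probe, A_55_P2016034 at chr8:97051105-97051164, read 1.18, 0.39, 0.67 and -0.24 in microglia and 1.18, 0.44, 1.98 and 1.86 in macrophages. In animals A and B both cell types were level on this probe, while in animals C and D the macrophage array was higher by 1.31 and 2.11. The difference was 0.87 (SE 0.43, adjusted p by limma = 0.263), and without macrophage replicate 2 it was 1.18, with an adjusted p by limma of 0.0798. The correlation of both probes over the 8 arrays was 0.72, and animal A separates them: A_66_P113043 was higher in its macrophages by 1.78.

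Animal B and its macrophage array carried much of the spread. Macrophage replicate 2 was the lowest of the 4 macrophage arrays for 11 of 13 probes, against 47.4% of all tested probes. The exceptions were Tap2, for which it was the highest, and the dim Psmb9 probe. Probes higher in macrophages numbered 10 of 13 in animal A, 9 in B, 11 in C and 11 in D. The median member difference was 0.46 in animal A, 0.06 in B, 0.29 in C and 0.63 in D, while the median over all tested probes was 0.05, -0.14, 0.07 and 0.05. Without macrophage replicate 2, 2 of 13 probes were called, both higher and both named above, against 14.0% of all tested probes (7.14% higher and 6.83% lower), and the median member difference was 0.62 against 0.06 over all probes. With the animal as a block 0 of 13 were called, against 3.7% of all tested probes (1.2% higher and 2.5% lower). At the background without that library, 2 of 13 is not a result about these genes as a set. The part of the cell type marker levels of that array, given above, in its lower class I values was not tested.

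**Figure D4:**
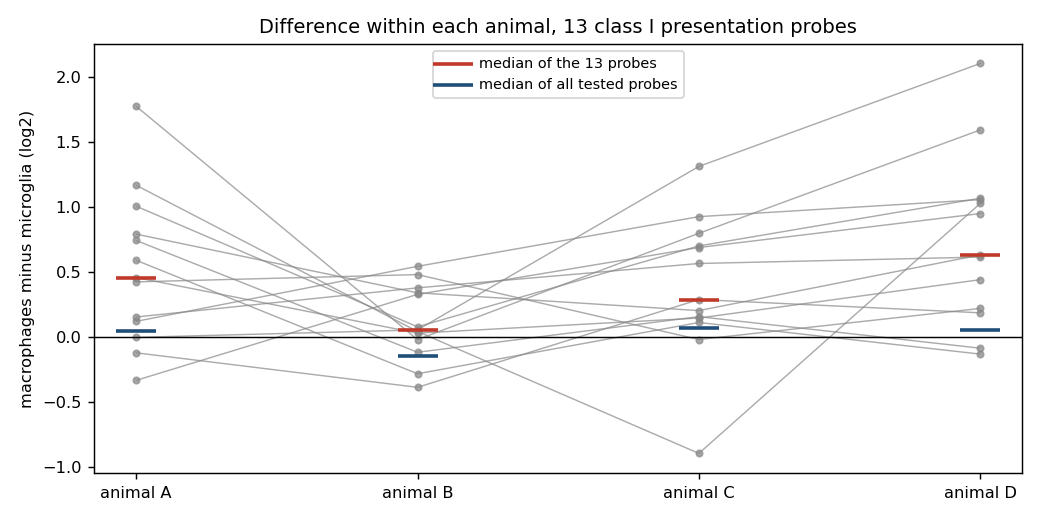
Difference within each animal (macrophage minus microglia array of the same replicate number, log2) for each of the 13 probes, joined by a grey line, in animals A to D. The median of the 13 probes is in red and that of all tested probes in blue. Animal B, the only one whose arrays lay on different slides, has the lowest member median, 0.06. The members lie above the all-probe median in each animal, by median.

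The 2 slides each held both cell types, with 5 arrays on the larger and 3 on the smaller. In animals A, C and D both arrays lay on the same slide. In animal B the microglia array lay on the smaller slide and the macrophage array on the larger. For animal B the cell types and the slides therefore cannot be told apart. With the slide as a term no member was called, and 13 of 13 differences were above 0. Within the larger slide the differences were -0.19 for B2m, -0.22 for Tap1, 0.21 for H2-D1, 0.76 for Psmb8, 0.59 for the printed Psmb9 probe and 0.61 for the printed Nlrc5 probe. Within the smaller slide, with 1 macrophage array, they were 0.71, 0.68, 1.12, 0.64, 0.85 and 1.74 in the same order. The other Psmb9 probe was 0.18 on the larger and 0.73 on the smaller slide, and the other Nlrc5 probe 1.22 and 0.40. B2m and Tap1 thus had opposite signs on the slides, and the 2 Nlrc5 probes differed in which slide gave the larger value. The slides were not tested against each other.

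Taken as profiles over the 8 arrays, with the brightest probe of each gene, the 10 genes gave 45 pairs with a median Pearson correlation of 0.60, and 43 of the 45 were above 0. These are descriptions over 8 arrays that share the same scaling and cell types, and the same share for pairs of other probes is not given here. The brightest H2-K1 probe is the one that shares a run with the H2-T23 probe, so its correlations may not be those of H2-K1 alone. The correlations include the difference between the groups. For deviations from the group means, H2-D1 and H2-K1 gave 0.97, but Psmb9 and Psmb8 fell from 0.62 to 0.21. Tap2 then gave -0.75 with Tapbp and -0.66 with Psmb8. The highest was 0.96 between H2-D1 and H2-K1, and the lowest -0.55 between Tapbp and Tap2. With the mean of the 10 standardised profiles, H2-D1 correlated at 0.95 and H2-K1 at 0.92, and Tap2 stood lowest at 0.24. Outside the 10 genes, the names whose profile was most like that mean were the transcript ENSMUST00000069552 at 0.993, Msr1, a macrophage scavenger receptor, at 0.990, Dos at 0.988, Apoc2, an apolipoprotein, at 0.987 and Ccne1, cyclin E1, at 0.985.

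Other genes of the pathway were measured by 115 probes, of which 105 were tested, and 3 were called higher and 2 lower in macrophages, against the 2.34% and 4.11% of all probes. Their median difference was 0.26. Of 26 tested probes of other class I heavy chains, none was called higher and 1 lower, with a median of 0.27, and without macrophage replicate 2 these were 2 higher and 2 lower. None of 13 probes of loading and trimming in the endoplasmic reticulum was called (median 0.06), nor any of 9 of the proteasome activator and assembly factors (median 0.31). Among the 12 probes of the non-catalytic core proteasome, 1 was called higher, all 12 differences were above 0 and the median was 0.55; without macrophage replicate 2, 3 were called higher. None of the 4 probes of Psmb5, Psmb6 and Psmb7 was called. Interferon receptors and kinases gave 1 lower of 9 (median 0.07), and cross-presentation genes 1 higher of 9 (median -0.02).

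**Figure D5:**
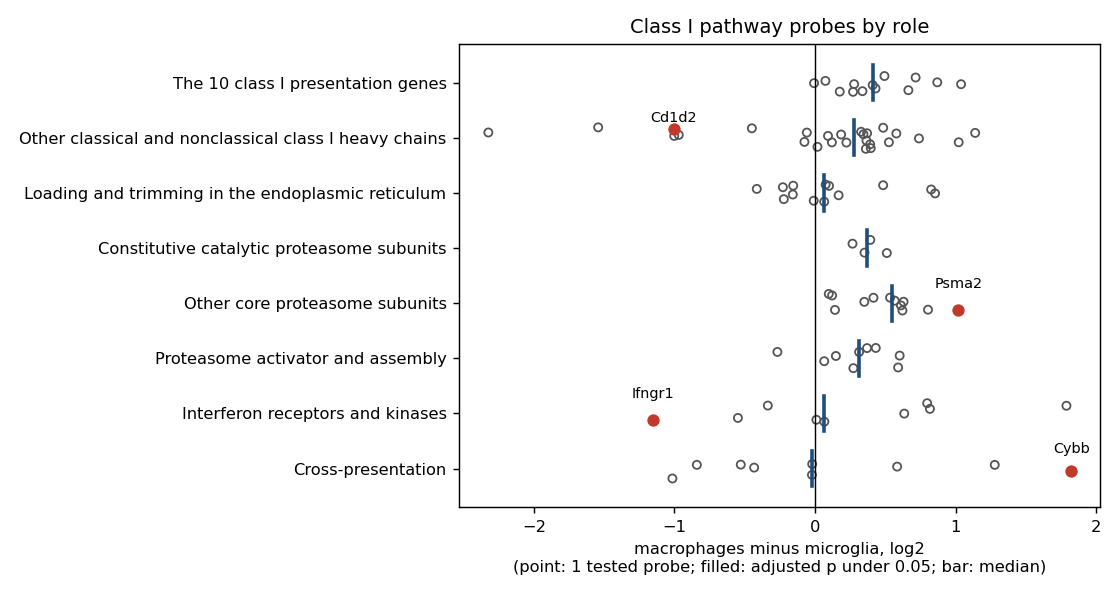
Difference (macrophages minus microglia, log2) of each tested probe of the 10 genes and of 7 other class I pathway lists, with called probes filled and named and each list's median as a bar. The called probes in the plot are those of Cybb, Psma2, Ifngr1 and Cd1d2, and none is one of the 13 member probes.

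Ifngr1, the ligand-binding chain of the interferon gamma receptor, was lower in macrophages, with 4.36, 4.26, 3.72 and 4.49 in microglia and 3.20, 2.83, 2.84 and 3.34 in macrophages. The groups did not overlap. It fell by 1.15 (SE 0.26, adjusted p by limma = 0.0352), or 2.23-fold, in all 4 animals, and a block for the animal gave an adjusted p of 0.0660. With the slide as a term the adjusted p was 0.0781. Leaving out 1 array kept the call in 3 of 8 cases, those of microglia replicate 3 and macrophage replicates 2 and 4.

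Cybb, the gp91phox subunit of the phagocyte oxidase, which limits antigen breakdown in phagosomes during cross-presentation, was a probe whose call held whichever single array was left out. It read 4.03, 3.06, 3.30 and 3.57 in microglia and 5.60, 4.62, 5.45 and 5.58 in macrophages. Every macrophage array lay above every microglia array. The difference was 1.82 (SE 0.32), or 3.54-fold, with an adjusted p by limma of 0.0130, and 0.0264 with the animal as a block. Within the larger and the smaller slide alone it was 1.78 and 2.06, with adjusted p by limma of 0.206 and 0.308.

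Psma2, a structural subunit of the proteasome's outer ring, read 2.09, 1.48, 1.41 and 1.70 in microglia and 2.66, 2.49, 2.86 and 2.75 in macrophages, without overlap. Its difference was 1.02 (SE 0.24, adjusted p by limma = 0.0403), with an adjusted p of 0.104 with the animal as a block and 0.0747 with the slide as a term. Leaving out 1 array kept its call in 2 of 8 cases, those of microglia replicate 1 and macrophage replicate 2. Cd1d2, a class I-like gene, read 0.43, 0.49, 0.57 and 0.51 on probe A_55_P1971174 in microglia and -0.52, -0.33, -0.22 and -0.94 in macrophages. It fell by 1.0 (SE 0.23, adjusted p by limma = 0.0395), with an adjusted p of 0.0987 with the animal as a block and 0.0785 with the slide as a term, and leaving out any array but macrophage replicate 2 ended the call. The other Cd1d2 probe, A_52_P165705, was well above background on 2 of the 4 macrophage arrays and its difference was -1.54 (SE 0.56, adjusted p by limma = 0.143). Cd1d1 and Cd1d2 are near-identical copies, so a probe of one can read the other.

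The starts of these genes were looked up in RefSeq promoter windows on mouse build GRCm38.p6, 250 bases before to 50 after each start, which matched 8 of the 10 genes with 9 promoters. Psmb9 and Tap1 are transcribed away from each other, and 225 bases lie between their starts, at chr17:34187331-34187555, shown because these 2 members share it.
Psmb9 and Tap1 shared promoter, + strand, CCAAT in capitals: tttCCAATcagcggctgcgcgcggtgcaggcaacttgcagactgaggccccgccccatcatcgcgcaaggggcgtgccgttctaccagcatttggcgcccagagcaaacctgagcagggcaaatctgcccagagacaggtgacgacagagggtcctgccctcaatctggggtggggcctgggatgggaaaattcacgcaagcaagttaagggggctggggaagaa
Their differences on the arrays were 0.71 (SE 0.28) for the RefSeq Psmb9 probe and 0.18 (SE 0.31) for Tap1, and the levels of these probes correlated at 0.69 over the 8 arrays. The other Psmb9 probe differed by 0.34 (SE 0.36). One stretch of sequence thus lies beside 2 transcripts whose differences were unlike in size, and that contrast was not tested.

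The heavy chains share a promoter element that is well known from class I genes, a kappa B site, which was searched on both strands because of that. The search took GGGGA and TCCCC with 1 base between them, and found the pair in 16 of 32851 promoters (0.0487%), of 15 genes, and H2-K1, H2-D1 and the nonclassical H2-Q6 were among the 15. The 131 bases centred on it are shown in the direction of transcription with the site in capitals, from chr17:34000388-34000518 (- strand) for H2-K1 and chr17:35262863-35262993 (+ strand) for H2-D1.
H2-K1 promoter: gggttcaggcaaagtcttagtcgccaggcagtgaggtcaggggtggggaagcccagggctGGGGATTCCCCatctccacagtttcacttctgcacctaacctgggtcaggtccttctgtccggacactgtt
H2-D1 promoter: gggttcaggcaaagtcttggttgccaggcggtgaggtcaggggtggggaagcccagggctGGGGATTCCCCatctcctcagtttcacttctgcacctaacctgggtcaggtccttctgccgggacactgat
These windows were identical at 124 of 131 positions (94.7%). The site begins 111 or 125 bases before the 2 listed starts of H2-K1 and 171 before that of H2-D1. The arrays gave these 2 genes differences of 0.27 and 0.43 (H2-K1) and 0.49 (H2-D1), none of them called.

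Other motifs gave less. An interferon-response pattern, GAAA repeated with 2 bases between, was in the window of B2m alone of the 8 genes, and in 3.44% of all promoters. Only this exact form was searched. Looser forms of the element were not searched, so the heavy chain promoters printed above may carry one. CCAAT was in the windows of B2m, H2-D1, H2-K1, Psmb9, Tap1 and Tapbp, 6 of 8 genes, and in 37.4% of all promoters. The site printed above between Psmb9 and Tap1 lies in the windows of both. H2-K1 and H2-D1 are nearly identical over the stretch printed above. These matches are therefore not independent, and the count of genes cannot be set against the share of promoters. A match describes letters in a window, and its absence says only that these letters are not in that window.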

How the data were processed

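RNA was amplified by a global PCR of cDNA and labelled with Cy3, per the labels' protocols, and such amplification can change transcript proportions. The authors deposited each array's processed signal, an intensity from Agilent Feature Extraction 10.7.3.1 that is background-subtracted but not scaled between arrays, per the file headers. They also deposited a table of log2 values of the same arrays, whose normalization is not given in the sources used here, and which served as an alternative. Flagged spots were dropped, spots of a probe averaged, and log2 intensity centred on each array's 75th percentile. limma 3.58.1 (R 4.3.3) was fitted to all probes well above background on at least 4 of 8 arrays. On simulated data, 50 probes were changed at each size and the rest left unchanged. The same fit called 2 of the 50 changed by 1 log2 unit, so it missed most 2-fold changes there. It called 18, 36 and 37 of those changed by 2, 3 and 4 units, and 13 unchanged probes. A smaller share of probes was changed there than was called in the data, which makes the adjustment stricter. These counts therefore do not measure recovery in the data. Alternatives were other scalings, filters, the slide, the animal as a block and leaving out each array.

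Both groups share animals, and the samples were paired by replicate number. Each sample title carries a different number, so the pairing within an animal rests on the replicate numbers. The title numbers of a pair follow one another in animals A and B but not in C and D, where another pairing is possible. The correlation of paired deviations from the group means was 0.04 (A), 0.10 (B), 0.07 (C) and -0.02 (D). The fit without the block is the main one.

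Members, lists and motifs were chosen with earlier results of these data known. Named genes are every member, each other list's called probes with the largest rise and fall, the 3 subunit pairs and the 5 most alike profiles; the marker list gives its counts and, below, its brightest probe. Some results that meet this rule, 1 called probe of the other pathway lists among them, are not reported here. The number of arrays limits the precision.

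Marker lists were those of microglia (0 higher and 10 lower of 15 tested), monocytes (brightest probe S100a4, 8 and 0 of 15), endothelial cells (Ly6a, 6 and 0 of 14), T and natural killer cells (Prf1, 3 and 0 of 10), B cells (Cd79b, 0 and 0 of 1), dendritic cells (Itgax, 2 and 0 of 9), neutrophils (Csf3r, 0 and 0 of 7), border macrophages (F13a1, 0 and 1 of 9), and neurons, astrocytes and oligodendrocytes (Snap25, 2 and 0 of 10).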

Additional observations from a re-analysis of the deposited data

Results flagged for a closer look

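Of 42 groups of 4 arrays examined, 2 held an array whose gap to its nearest neighbour exceeded Dixon's 95% critical value for its share of the group's range, and chance gives about 1 in 20. Macrophage replicate 2 read 4.62 for Cybb (A_55_P2082733), below the other macrophage arrays at 5.45 to 5.60 and above all microglia arrays. Microglia replicate 1 had a Psmb9 to Psmb6 log2 ratio of -0.62, below the other microglia arrays at 0.25 to 0.38.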

How the results depend on the processing

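No member was called in any setting but without macrophage replicate 2, where 2 were (Psmb9 A_51_P369803 and Nlrc5 A_66_P113043), so leaving out 1 array gave 0 to 2. Of 270 member differences under the alternatives, 252 kept their sign and side of the threshold and 2, those of that setting, passed it. The other 16 changed sign, and none of them was called. B2m was -0.19 on the larger slide, -0.085 with the percentile over detected probes, -0.073 after quantile normalization, -0.091 after normexp with quantile normalization and -0.0725 in the deposited table, and leaving out 1 array gave -0.12 (without macrophage replicate 1) to 0.25 (without macrophage replicate 2). Tap1 was -0.22 on the larger slide, -0.0014 after quantile normalization, -0.019 after normexp with quantile normalization and -0.0058 in the deposited table. Tapbp was 0.079 with the slide as a term, 0.23 on the smaller slide, 0.12 with the animal as replicate block and the slide, 0.20 after median centring and, leaving out 1 array, -0.13 (without macrophage replicate 1) to 0.19 (without macrophage replicate 2), with 0.15 without microglia replicate 1. The Psmb10 to Psmb7 ratio ranged from -0.0094 without microglia replicate 2 to 0.27 without microglia replicate 1.

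All probes called higher in macrophages, 688, became 352 with the animal as replicate block, 429 with the slide, 245 with both, 17 and 16 on the larger and the smaller slide, 1064 after median centring, 406 with no filter and 305 to 2095 when leaving out 1 array. The 1206 called lower became 735 with the block, 598 with block and slide, 187 and 74 on the slides, 723 with the filter on all 8 arrays and 676 to 2005 when leaving out 1 array. Macrophage replicate 2 gives the highest of both ranges. The other pathway probes called higher, 3, became 1 with the slide, 0 and 0 on the slides, 6 after median centring, 5 after normexp with quantile normalization (4 with quantile normalization alone), 1 with no filter and 1 to 7 when leaving out 1 array. The 2 called lower became 0 with the block, with the slide, with both, on either slide, after median centring and with no filter, 4 after normexp with quantile normalization (3 with quantile normalization alone) and 0 to 3 when leaving out 1 array. The replicate block changed no member's call.

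Median centring moved the median of all differences by 0.21, and 53.2% of called probes were then higher, against 36.3% in the main scaling and 25.4% with the percentile over detected probes, which moved the median by -0.16. The cause of these changes was not tested. With 4 arrays a group, intervals are wide, and 5 of 13 members had one within 2-fold either way.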

Other observations

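Some nonclassical class I chains lay on both sides of 0 further out than the classical ones. The 26 tested probes of the other heavy chains ran from -2.32 to 1.14, and the lowest was not called. H2-T10 and H2-T9, chains of the T region, read 1.58 to 2.49 and 2.46 to 3.38 in microglia and 2.69 to 3.40 and 3.54 to 4.13 in macrophages. Each was higher in macrophages in all 4 animals without overlap between the groups, by 1.14 (SE 0.30, adjusted p by limma = 0.0619) and 1.02 (SE 0.29, adjusted p by limma = 0.0770), and neither passed the threshold with all 8 arrays. Without macrophage replicate 2 both did, at 0.0315 and 0.0442, and after median centring at 0.0384 and 0.0457. Chains of this region are close copies, so these 2 probes may not be independent. The Cd1d1 probe A_55_P1971179 differed by -1.0 (SE 0.25, adjusted p by limma = 0.0539), a size like that of the called Cd1d2 probe, and it passed the threshold without macrophage replicate 2 (adjusted p = 0.0408) and with the percentile over detected probes (adjusted p = 0.0371). These genes were singled out after their values were seen.

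Of the non-catalytic core proteasome, Psma3 differed by 0.80 and both Psma4 probes by 0.63 and 0.62, with adjusted p by limma of 0.0934, 0.192 and 0.192. Without macrophage replicate 2 these were 0.0460, 0.0406 and 0.0580. Each was higher in macrophages in all 4 animals.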
